A study of Mus musculus with 4 samples.

Results

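In mouse embryonic stem cells (ESCs), 20 loci to which the deposited count table gave no ordinary symbol differed between wild-type (WT) cells and a Rest-/- line, 13 of them higher and 7 lower in the latter. They were chosen from the 4510 rows of the 26301-row count table whose symbol was blank (4338 rows) or a placeholder of the Gm kind (172 rows). Of these, 770 had a mean of at least 1 CPM (the count of a gene for every 1000000 counts of its library) in either line. The members were then selected on their measured values, as rows whose log2(CPM + 0.5) differed by 1 or more, in the same direction, in both same-numbered library pairs. The size and direction of their differences are therefore a description, and no test of the WT and Rest-/- values of these loci is given. By the same rule, 1.69% of all 14047 rows of at least 1 CPM were higher and 0.683% were lower. Among the 770 candidates, 1.69% were higher and 0.909% were lower, shares close to those of all rows.

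Total RNA was sequenced from 2 biological replicates of N6 (WT) ESCs and 2 of N8 (REST -/-) ESCs. Both lines were kept in medium with leukemia inhibitory factor and serum on irradiated feeder fibroblasts, then passaged on gelatin to remove the feeders. Each genotype is a single line, so effects of the line and of the genotype cannot be told apart, and the spread given is that between 2 replicates. The WT libraries held 30953863 and 27061056 counts and the Rest-/- libraries 25461270 and 22293966, so that 3 counts correspond to between 0.0969 and 0.135 CPM. Rest itself had 7908 and 6233 counts in WT ESCs against 4244 and 3890 in Rest-/- ESCs (log2 fold change -0.52, standard error (SE) 0.13, adjusted p = 0.526 in edgeR's quasi-likelihood test). A gene's count is 1 sum over its exons and cannot tell which part of the Rest transcript remained.

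A name of the Gm kind is a placeholder that mouse nomenclature gives to a predicted gene, and a blank symbol means that the table gave only a gene ID. Many such loci are processed pseudogenes, copies of a messenger RNA that were reverse transcribed and inserted elsewhere in the genome. They resemble their source gene so closely that short reads can be hard to assign between the copies, and they are most numerous for ribosomal protein genes. REST is a zinc finger repressor that binds a DNA element called RE1 and is best known for silencing neuronal genes outside neurons.

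By gene ID, 12 of the 20 members have an entry in the RefSeq gene table of GRCm38.p6, which was used for names alone. It lists 5 of them as protein-coding genes (Elavl3, Shisa6, Ankrd34a, Odaph and Gm364) and 7 as pseudogenes. GENCODE M1 differs for 4 of these 7, with Gm6724, Gm5292 and Gm10240 as protein-coding and Gm10653 as a processed transcript, and they are called pseudogenes here after RefSeq. Pseudogenes made up 35.0% of the members and 24.1% of the other 750 candidates, and loci with no entry 40% and 33.5%. The 8 loci with no entry, 5 higher and 3 lower, are called by their gene IDs. The GENCODE M1 annotation of NCBIM37 (mm9) gives positions for 10 members.

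**Figure D1:**
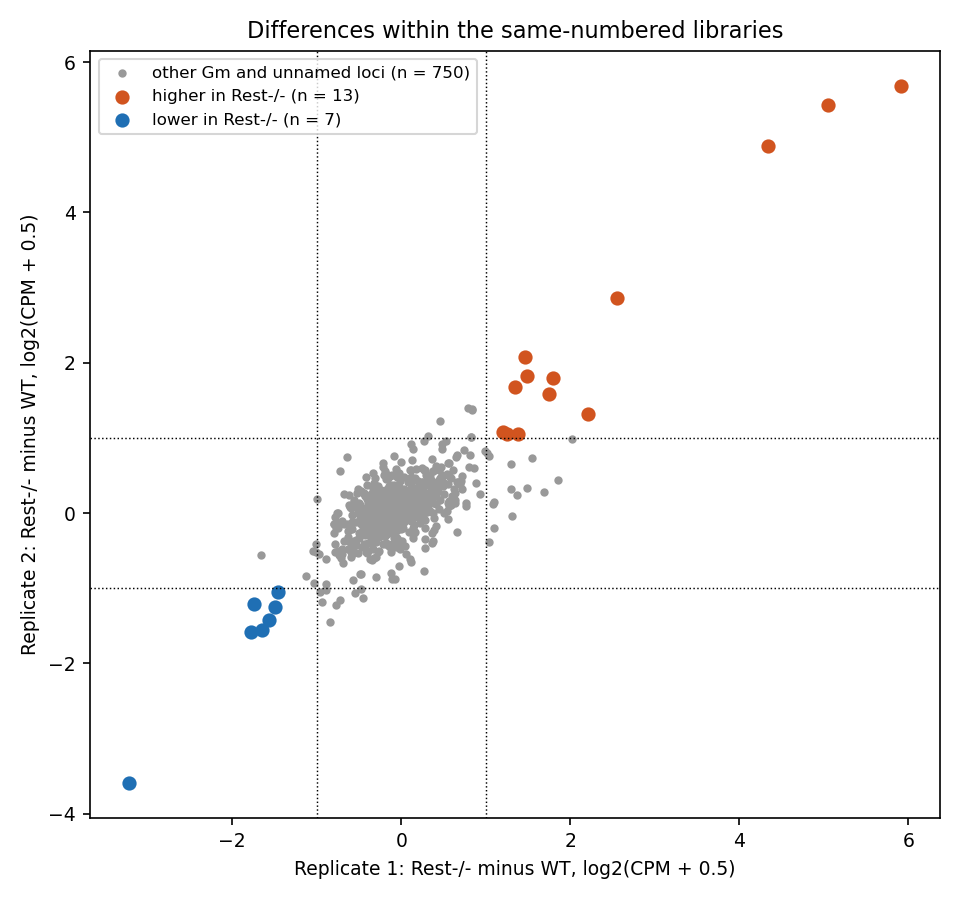
Difference between Rest-/- and WT in log2(CPM + 0.5) for replicate 1 (horizontal axis) and replicate 2 (vertical axis), 1 point per locus, for the 770 unnamed and Gm loci of at least 1 CPM; dotted lines mark 1 and -1. The 13 higher members lie between 1.05 and 5.91 and the 7 lower members between -3.59 and -1.05, and 3 higher members stand apart with differences above 4 in both replicates.

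The differences spanned a wide range. Over the 13 higher members the median log2 fold change fitted by edgeR was 2.36, and over the 7 lower members it was -2.09, also when the 3 loci with at most 3 counts in both libraries of a line were set at their bound. The median over all 15444 genes tested was -0.0047. In no member did the CPM of the 2 lines overlap, which the rule itself favours, and the share of all rows without overlap was not counted. The 2 pair differences of a member lay within 0.886 of each other for the higher members and within 0.538 for the lower ones.

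**Figure D2:**
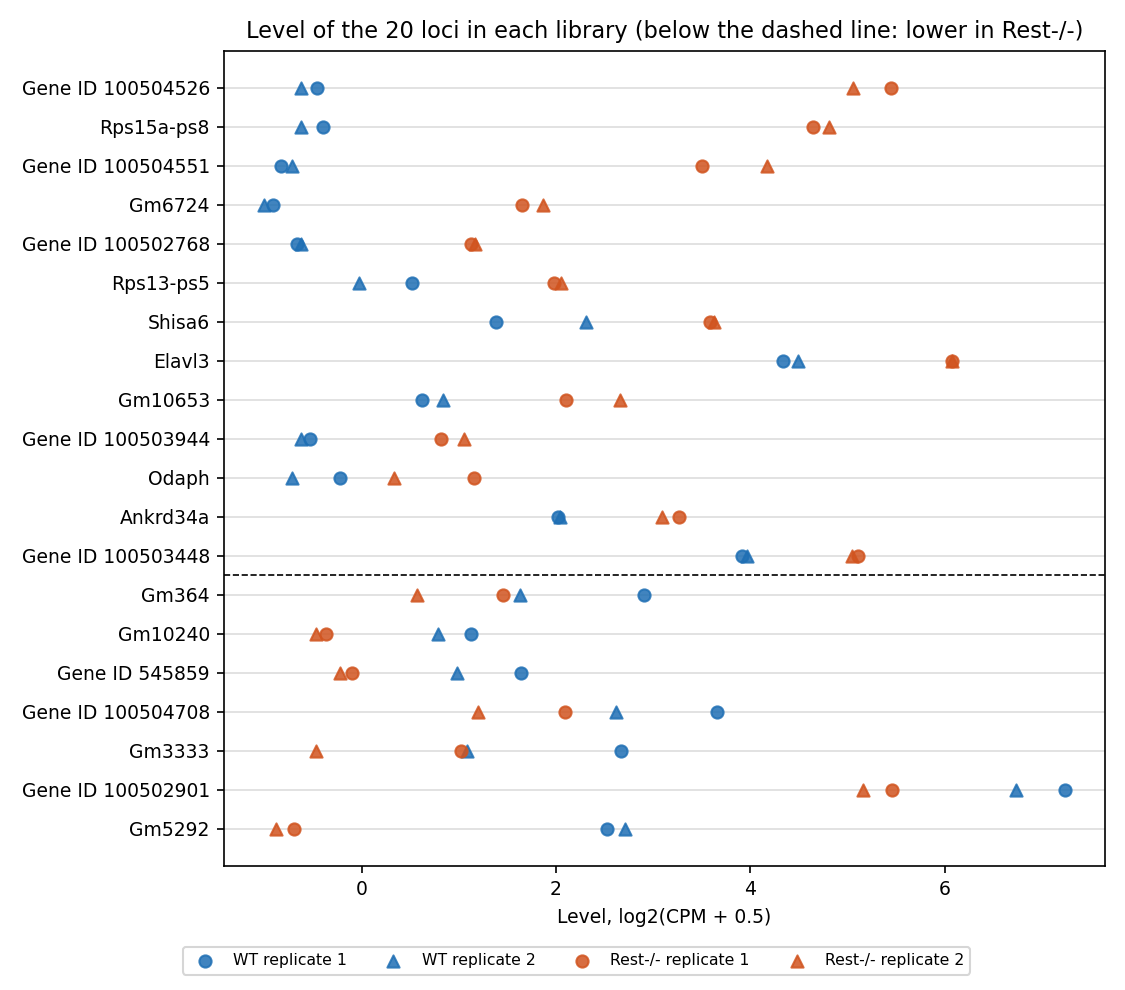
Level of each of the 20 members in each library, as log2(CPM + 0.5), with circles for replicate 1, triangles for replicate 2, blue for WT and orange for Rest-/-; members above the dashed line were higher in Rest-/- ESCs. The 5 loci at the top had 8 counts or fewer in each WT library, and Gm5292 in the bottom row had 3 or fewer in each Rest-/- library.

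Protein-coding genes made up 4 of the 13 higher members. Elavl3, which encodes a neuronal RNA-binding protein (gene ID 15571; mm9 chr9:21819449-21856467, minus strand), had 609 and 596 counts in WT ESCs against 1706 and 1488 in Rest-/- ESCs. This was 20.9 ± 1.66 CPM (SD, n = 2) against 66.9 ± 0.183 CPM, a 3.21-fold higher level and the highest Rest-/- level of any member. Shisa6 (symbol Gm879 in the table; chr11:66025227-66339466, minus strand), which encodes a membrane protein associated with AMPA-type glutamate receptors, had 65 and 121 counts in WT ESCs against 292 and 265 in Rest-/- ESCs. Its level was 3.29 ± 1.68 and 11.7 ± 0.296 CPM (log2 fold change 1.82, SE 0.44, 1.36 without WT replicate 1 and 2.47 without WT replicate 2). The WT libraries of Shisa6 differed from each other more than its Rest-/- libraries did.

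Ankrd34a, an ankyrin repeat gene (chr3:96400559-96403698, plus strand), had 110 and 98 counts in WT ESCs against 233 and 179 in Rest-/- ESCs, a 2.39-fold difference (3.59 ± 0.0479 and 8.59 ± 0.793 CPM). Odaph (symbol Gm1045 in the table; chr5:92416501-92419330, plus strand), a gene of tooth enamel formation, was low throughout, with 11 and 3 counts in WT ESCs against 44 and 17 in Rest-/- ESCs. Its log2 fold change of 2.36 had an SE of 0.75, was 3.41 without WT replicate 1 and 1.68 without Rest-/- replicate 1, and it no longer met the rule without WT replicate 2 or Rest-/- replicate 1.

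The 5 higher loci without a RefSeq entry include the member with the largest difference when all libraries are used. Rows of the table follow the chromosomes, ascending in 99.3% of consecutive pairs on a chromosome, so their place in the table is given by the named rows on either side; a row's place is not an annotation. Gene ID 100504526, between Klhdc4 and Slc7a5, had 7 and 4 counts in WT ESCs against 1102 and 733 in Rest-/- ESCs. This is 0.187 ± 0.0554 against 38.1 ± 7.36 CPM, a 204-fold difference that rests on few WT counts. Gene ID 100504551, between Adra2a and Gpam, had 2 and 3 counts in WT ESCs against 277 and 392 in Rest-/- ESCs, at least 137-fold higher when the WT level is set at 3 counts per library. In both loci the WT libraries sat near the floor of detection, and both Rest-/- libraries were above 10 CPM.

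Gene ID 100503448, between Ina and Pcgf6, was expressed in both lines, with 450 and 410 counts in WT ESCs against 869 and 724 in Rest-/- ESCs (14.8 ± 0.434 and 33.3 ± 1.17 CPM). Its 2.24-fold difference was the smallest among the higher members. Gene ID 100502768, between Srrm3 and Hspb1, had 4 and 4 counts in WT ESCs against 43 and 39 in Rest-/- ESCs, and gene ID 100503944, between Melk and Pax5, had 6 and 4 against 32 and 35. Both stayed under 2 CPM in every library, with log2 fold changes of 3.58 (SE 0.44) and 2.99 (SE 0.46).

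The other 4 higher members are pseudogenes, and each resembles a gene that is itself expressed in ESCs. Rps15a-ps8 (gene ID 435784), a copy of the ribosomal protein gene Rps15a, had 8 and 4 counts in WT ESCs against 625 and 613 in Rest-/- ESCs (0.203 ± 0.0782 and 26.0 ± 2.09 CPM), a 128-fold difference. The annotation gives it no position. The Rps15a coding sequence matched 1 place between Tal2 and Tmem38b, the genes around its row, at mm9 chr4:53803939-53804328 on the minus strand, with 92.05% identity over 390 bases and 2355 bases from Tal2. The first 120 bases of that match (chr4:53804209-53804328, minus strand) are shown with the start of the Rps15a coding sequence, because the 15 positions at which they differ, in capitals, are what could separate reads of the 2 loci. Other Rps15a copies were not compared here.
Rps15a-ps8: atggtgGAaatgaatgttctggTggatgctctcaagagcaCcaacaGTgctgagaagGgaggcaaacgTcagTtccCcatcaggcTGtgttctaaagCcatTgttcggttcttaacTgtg
Rps15a: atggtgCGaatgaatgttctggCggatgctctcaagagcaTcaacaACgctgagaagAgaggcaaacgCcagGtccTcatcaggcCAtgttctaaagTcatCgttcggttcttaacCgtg

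The Rps15a gene itself differed little between the lines. It had 8145 and 6931 counts in WT ESCs against 6096 and 5113 in Rest-/- ESCs, pair differences of -0.14 and -0.16 on the log2(CPM + 0.5) scale. Rps15a-ps8 held 0.0982% and 0.0577% as many counts as Rps15a in WT ESCs, against 10.3% and 12% in Rest-/- ESCs. Of the other Rps15a copies in the table, Rps15a-ps7 (7489 and 6334 against 5832 and 5029 counts), Rps15a-ps6 (543 and 510 against 609 and 537) and Rps15a-ps2 (183 and 154 against 82 and 79) did not meet the rule. The summed level of the family was 529 and 515 CPM in WT and 520.2 and 510.0 CPM in Rest-/- ESCs.

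Rps13-ps5 (gene ID 668239; Gm12270 in GENCODE; chr11:61019222-61019677, minus strand), a copy of the ribosomal protein gene Rps13 at 97.37% identity, had 29 and 13 counts in WT ESCs against 88 and 81 in Rest-/- ESCs (0.937 and 0.48 against 3.46 and 3.63 CPM, log2 fold change 2.30, SE 0.45). The Rps13 gene had 137 and 98 against 109 and 81 counts, pair differences of -0.04 and 0.00. Another copy, Rps13-ps4, also met the pair rule, with 112 and 70 counts in WT ESCs against 202 and 188 in Rest-/- ESCs; it has a symbol and was therefore no candidate. Reads of Rps13-ps5 and Rps13 can be told apart at 7 positions, in capitals, of the 120 bases at chr11:61019240-61019359 (minus strand), shown with bases 319 to 438 of the Rps13 coding sequence. Rps13-ps4 and Gm15483, copies that match Rps13-ps5 at 97.15% and 96.71% identity, were not compared here. These bases may therefore not identify Rps13-ps5 among the copies.
Rps13-ps5: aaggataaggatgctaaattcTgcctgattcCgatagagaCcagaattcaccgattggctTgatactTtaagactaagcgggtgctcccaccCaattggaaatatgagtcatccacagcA
Rps13: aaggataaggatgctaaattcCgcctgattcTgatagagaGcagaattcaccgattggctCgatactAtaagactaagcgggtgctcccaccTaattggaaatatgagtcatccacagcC

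Gm10653 (gene ID 677044; chr9:62689284-62715807, minus strand) matched the ribosomal protein gene Rps2 over 72.0% of its length at 91.35% identity. It had 32 and 35 counts in WT ESCs against 97 and 130 in Rest-/- ESCs (1.16 ± 0.184 and 4.82 ± 1.43 CPM, 4.14-fold), whereas the pair differences of Rps2 were -0.09 and -0.29. The span of Gm10653 overlaps those of Cln6 and Calml4 on the opposite strand. Its exons share 181 bases with Cln6 and 0 with Calml4, and the library kit does not mark strand, so reads from those 181 bases cannot be told apart. Calml4 also had higher counts in Rest-/- ESCs, as described with the neighbouring genes.

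Gm6724 matched Hmgn2, which encodes a nucleosome-binding protein, over 99.8% of its length at 97.56% identity. It had 1 and 0 counts in WT ESCs against 67 and 70 in Rest-/- ESCs, at least 27.8-fold higher with WT set at 3 counts per library. The Hmgn2 gene had 831 and 527 counts in WT ESCs against 582 and 395 in Rest-/- ESCs, pair differences of -0.23 and -0.13. Its other copies, Hmgn2-ps1 and Gm10282, had pair differences of 0.88 and 1.15, and of 0.66 and 0.78, so no other Hmgn2 copy met the rule.

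Among the 7 lower members, 3 are pseudogenes. Gm5292 (gene ID 384179; chr5:44335141-44335722, minus strand), a copy of the ribosomal protein gene Rpl15 at 95.76% identity, had the largest difference of the group, with 163 and 164 counts in WT ESCs against 3 and 1 in Rest-/- ESCs. This was 5.66 ± 0.562 against 0.0813 ± 0.0516 CPM, at least 44.9-fold lower with Rest-/- set at 3 counts per library. Both WT libraries were far above the floor and both Rest-/- libraries were at or below it. Its bases at chr5:44335510-44335629 (minus strand) are shown with bases 94 to 213 of the Rpl15 coding sequence, with the 8 positions at which they differ in capitals; other Rpl15 copies match Gm5292 as closely and were not compared here.
Gm5292: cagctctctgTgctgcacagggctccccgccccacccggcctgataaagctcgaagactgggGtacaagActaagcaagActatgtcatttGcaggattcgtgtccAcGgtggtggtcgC
Rpl15: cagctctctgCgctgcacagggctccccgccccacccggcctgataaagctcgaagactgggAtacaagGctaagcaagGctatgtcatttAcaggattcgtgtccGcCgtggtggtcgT

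Rpl15 itself had 2361 and 1458 counts in WT ESCs against 1626 and 878 in Rest-/- ESCs, pair differences of -0.25 and -0.45. Gm5292 held 6.90% and 11.2% as many counts as Rpl15 in WT and 0.185% and 0.114% in Rest-/- ESCs. Another copy, Rpl15-ps6, also met the rule in the lower direction (1099 and 1227 against 326 and 344 counts, pair differences -1.44 and -1.53), while Gm4294 (-0.05 and 0.35) and Gm10224 (-0.14 and 0.15) did not.

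Gm10240 (gene ID 100503563; chr15:68141381-68141863, plus strand), a copy of the ribosomal protein gene Rpl21, had 52 and 33 counts in WT ESCs against 7 and 5 in Rest-/- ESCs (1.45 ± 0.326 and 0.250 ± 0.0358 CPM, 5.81-fold lower). It was 99.59% identical to Rpl21 and has 58 annotated copies of at least 90% identity, 8 of them in the table. In the 120 bases at chr15:68141693-68141812 (plus strand) it differs from bases 313 to 432 of the Rpl21 coding sequence at 2 positions, in capitals, and the bases between them are the same in both. Gm13370 and Gm10163, other Rpl21 copies, are 100% identical to Gm10240 over its whole length, so these bases do not identify it among the copies. Gm13370 had 7 and 4 counts in WT ESCs against 14 and 10 in Rest-/- ESCs, pair differences of 0.53 and 0.55, and Gm10163 had 8 and 9 against 1 and 2.
Gm10240: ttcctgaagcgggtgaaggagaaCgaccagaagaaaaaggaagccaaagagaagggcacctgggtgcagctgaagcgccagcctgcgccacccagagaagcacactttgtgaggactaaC
Rpl21: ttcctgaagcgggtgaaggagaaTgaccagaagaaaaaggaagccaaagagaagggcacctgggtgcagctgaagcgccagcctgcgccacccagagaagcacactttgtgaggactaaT

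Rpl21 had 3152 and 2981 counts in WT ESCs against 2645 and 2326 in Rest-/- ESCs, with pair differences of 0.03 and -0.08. The count of Gm10240 is therefore that of a locus 1.65% as high as Rpl21 at most, and is uncertain. Gm3333, a pseudogene without a position in the annotation, had 182 and 44 counts in WT ESCs against 39 and 5 in Rest-/- ESCs. WT replicate 2 (1.63 CPM) and Rest-/- replicate 1 (1.53 CPM) nearly met, the log2 fold change was -2.09 with an SE of 1.05, and it ranged from -4.03 without Rest-/- replicate 1 to -0.91 without WT replicate 1.

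**Figure D3:**
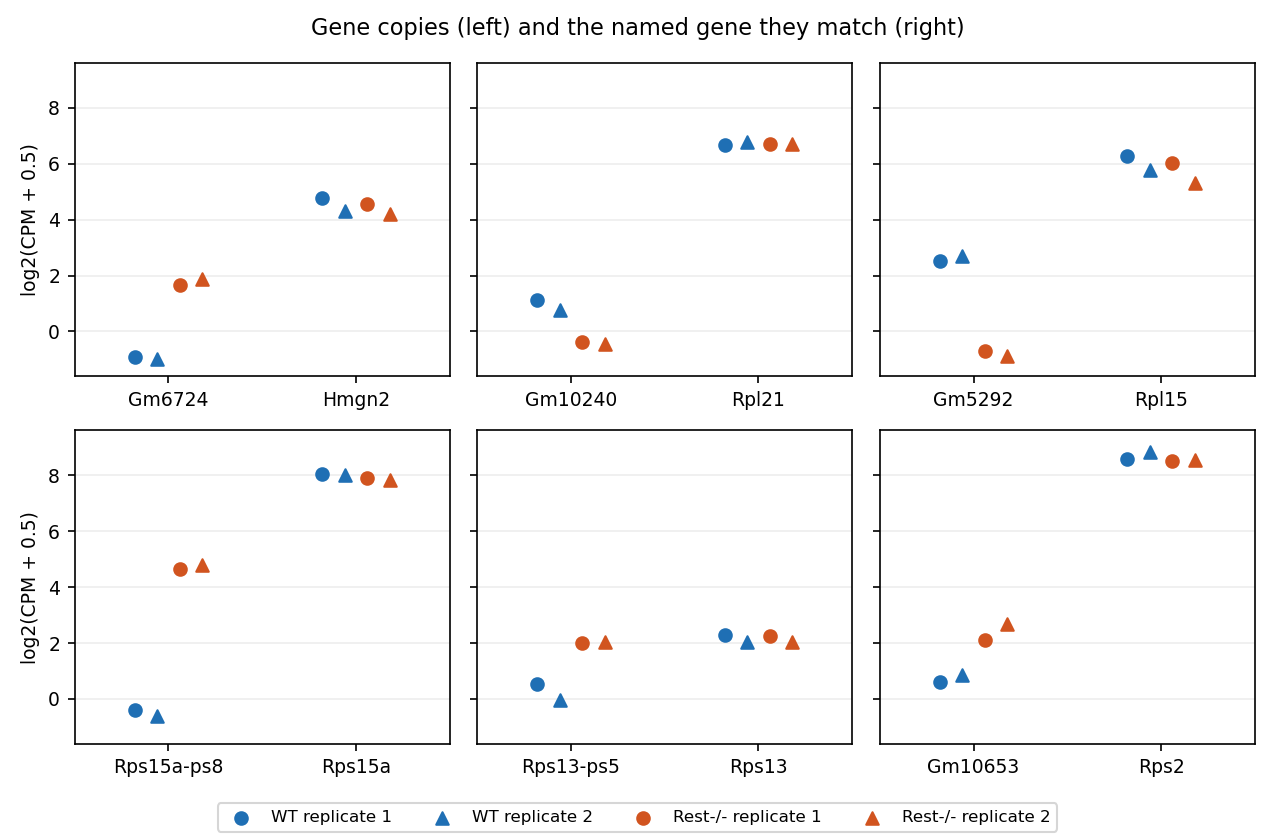
Level, as log2(CPM + 0.5), of the 6 members that copy a named gene (left in each panel) and of that gene (right) in each library, with blue for WT, orange for Rest-/-, circles for replicate 1 and triangles for replicate 2. The copies were chosen by the rule for differing between the lines. The 6 source genes were not, and their pair differences lie between -0.45 and 0.03.

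A near-identical copy elsewhere is common among such loci. Counting matches that covered 80% of a transcript or more with an identity of 90% or above, 4 of the 10 annotated members (40%) had one, and so did 161 of the 371 other annotated candidates (43.4%). With 50% coverage the shares were 5 of 10 (50%) and 48.2%. How reads that match several places were counted is not given in the sources used here, so the split of counts within these families is uncertain. The summed levels of a member, its source gene and their other copies in the table are given here with no test made. Each sum includes the member, which the rule chose for its difference, so it leans toward separating the lines. For Hmgn2 it was 55.7 and 43.3 CPM in WT ESCs against 76.6 and 70.1 CPM in Rest-/- ESCs. For Rps13 it was 10.0 and 7.4 against 16.6 and 17.0 CPM, and for Rpl15 136.7 and 125.5 against 95.6 and 80.6 CPM. For Rps2 it was 405.0 and 485.1 against 381.5 and 403.3 CPM, nearly meeting, and the sums of the Rps15a family and of the Rpl21 family (106.2 and 113.4 against 106.6 and 106.9 CPM) overlapped.

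The other 4 lower members are Gm364 and 3 loci with no RefSeq entry. Gene ID 100502901, between Prickle1 and Adamts20, was the most abundant member in WT, with 4651 and 2876 counts there and 1106 and 786 in Rest-/- ESCs (128 ± 31.1 and 39.4 ± 5.79 CPM, 3.26-fold lower). Gene ID 545859, between Cd207 and Vax2os1, had 81 and 40 counts in WT ESCs against 11 and 8 in Rest-/- ESCs (log2 fold change -2.37, SE 0.49). With single libraries left out their log2 fold changes ranged from -1.94 to -1.46 and from -2.71 to -1.91.

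The remaining members of the lower group, Gm364 on the X chromosome and a locus whose row lies among X-linked genes, varied between replicates. Gene ID 100504708, in the row between the X-linked genes Suv39h1 and Was, had 375 and 153 counts in WT ESCs against 96 and 40 in Rest-/- ESCs (log2 fold change -1.69, SE 0.57). Gm364, a protein-coding gene (chrX:54662331-54741944, plus strand), had 217 and 70 counts in WT ESCs against 57 and 22 in Rest-/- ESCs (-1.58, SE 0.67). In both loci replicate 1 was more than 2 times as high as replicate 2 in CPM in each line, and without WT replicate 1 or Rest-/- replicate 2 neither met the rule, nor did Gm3333; the log2 fold change of Gm364 was -0.71 without WT replicate 1 and -2.27 without Rest-/- replicate 1, and that of gene ID 100504708 was -1.05 and -2.30. The median log2 fold change over the 548 X-linked genes tested was -0.40.

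The rule did not use the named genes beside the members, so these could be tested. For each member the nearest named and tested gene before and after it in table order was taken, 40 genes in all. In edgeR's quasi-likelihood test, which called 0.0583% of all 15444 genes (8 higher, 1 lower), none of the 40 had an adjusted p under 0.05. An unadjusted p under 0.05 was found for 7, and the share of all genes under it was not counted. Other tests of the same counts called more: 5 neighbours with DESeq2, 4 with edgeR's exact test and tag-wise dispersion, 5 with common dispersion, and 8 (6 higher, 2 lower) with the replicate number as a block. Of all 15444 genes, DESeq2 called 180 higher and 58 lower, tag-wise dispersion 179 and 54, and common dispersion 246 and 97. The block called 1308 higher and 1313 lower, so a call with it is common among all genes. With a library left out, edgeR's quasi-likelihood test called Srrm3 in all 4 fits and Calml4 in 3.

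By the pair rule, 4 of the 26 neighbours of higher members were also higher (15.4%), against 1.06% of the 1321 neighbours of the other 750 candidates. This difference in share was not tested. The 4 genes are Ina, Srrm3, Pax5 and Calml4. Ina, a neuronal intermediate filament gene beside gene ID 100503448, had 1653 and 1511 counts in WT ESCs against 3095 and 2861 in Rest-/- ESCs (log2 fold change 1.18, SE 0.14, adjusted p = 0.124 in edgeR's quasi-likelihood test). Srrm3, a splicing regulator of neurons beside gene ID 100502768, had 16 and 36 against 486 and 481 counts (4.45, adjusted p = 0.135). Both passed the threshold in DESeq2, in the exact test with tag-wise dispersion and with the block. These differences were close to that of the member in the case of Ina and larger than it in the case of Srrm3.

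Pax5, a B cell transcription factor gene beside gene ID 100503944, had 2 and 2 counts in WT ESCs against 36 and 35 in Rest-/- ESCs (log2 fold change 4.33, adjusted p = 0.119 in edgeR's quasi-likelihood test). Calml4, a calmodulin-like gene whose span overlaps that of Gm10653 with no exon bases shared, had 65 and 28 against 302 and 391 counts (3.21, adjusted p = 0.215). Neither gene passed the threshold in edgeR's quasi-likelihood test, though both passed it in DESeq2, in both exact tests and with the block. Klhdc4 and Slc7a5 beside gene ID 100504526 had log2 fold changes of 0.71 and -0.01, of which Klhdc4 was called with the block alone, Tal2 and Tmem38b beside Rps15a-ps8 of -0.11 and 0.17, and Shoc2 and Gpam beside gene ID 100504551 of 0.03 and -0.05. Gm6724 (gene ID 100503331) lies on chromosome 18 of mm9 (35129314-35130423, minus strand), between Hspa9 and Ctnna1 (0.03 and 0.12). None of these neighbours met the pair rule.

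**Figure D4:**
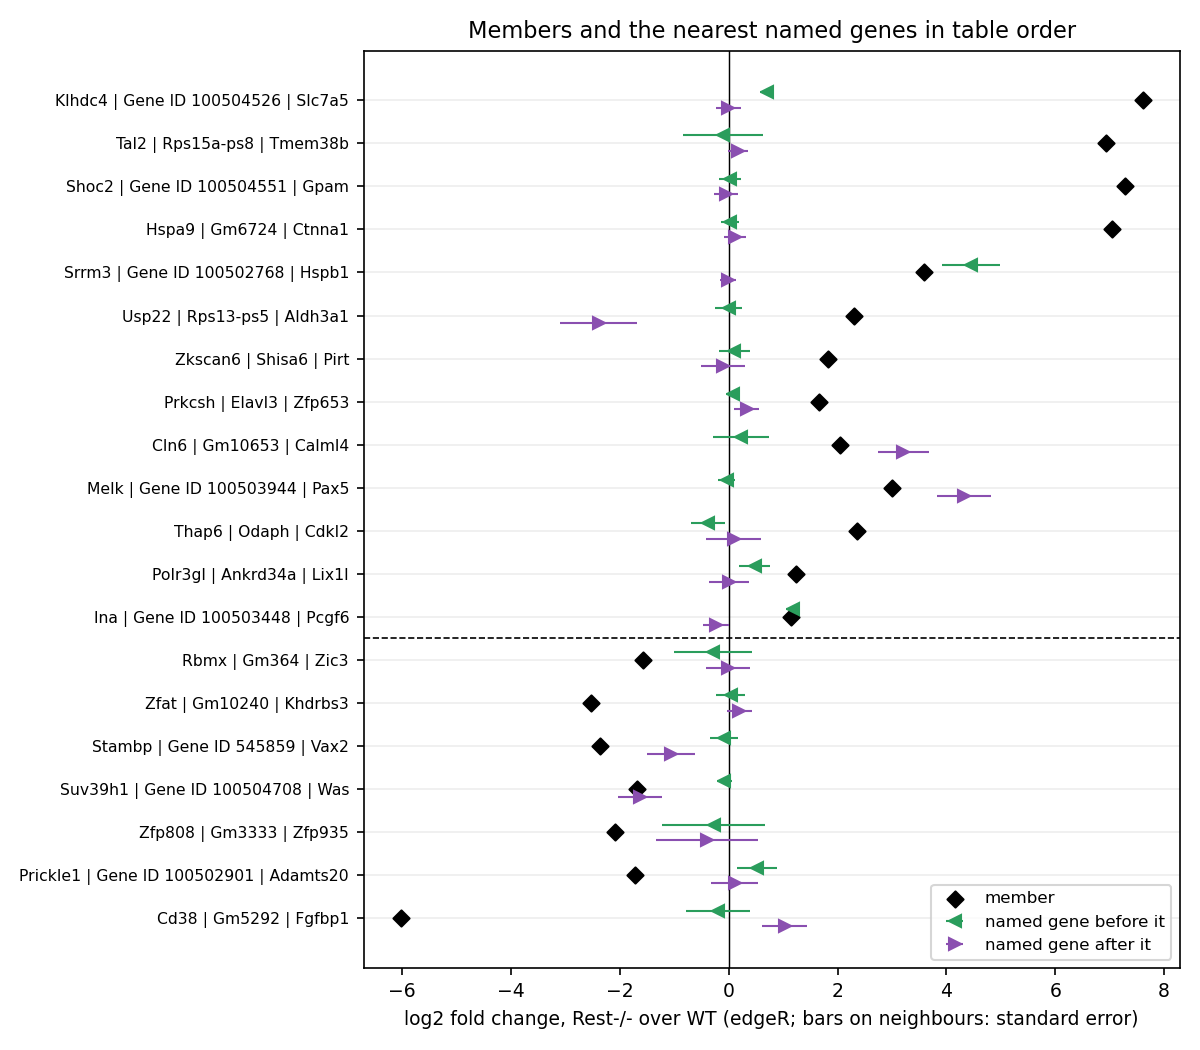
Fitted log2 fold change (Rest-/- over WT) of each member (black diamond) and of the nearest named, tested genes before (green) and after (purple) it in table order, with the SE of the neighbours as bars; labels give gene before, member and gene after. Of 40 neighbours, 6 met the pair rule, 5 of them in the direction of the member beside them, and most of the rest lie near 0.

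On the lower side, 1 of 14 neighbours (7.14%) met the pair rule, against 0.454% of the neighbours of the other candidates. This was Was, the Wiskott-Aldrich syndrome gene beside gene ID 100504708, with 335 and 171 counts in WT ESCs against 83 and 52 in Rest-/- ESCs (log2 fold change -1.63, adjusted p = 0.523 in edgeR's quasi-likelihood test). Was passed the threshold in DESeq2, in the exact test with common dispersion and with the block. In the opposite direction, Aldh3a1, an aldehyde dehydrogenase gene 1362 bases from Rps13-ps5, had 120 and 35 counts in WT ESCs against 16 and 8 in Rest-/- ESCs (-2.39, adjusted p = 0.654) beside a member that was higher, and passed the threshold with common dispersion and with the block. Fgfbp1, beside the lower member Gm5292, had a log2 fold change of 1.03 (SE 0.41, adjusted p = 0.779 in edgeR's quasi-likelihood test) and passed with the block alone. Whether a row without a position and the gene beside it belong to the same transcript was not tested.

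An RE1 element was searched on both strands of mm9 as CAGCACC, 2 bases of any kind and GGACAG, a strict form of the motif. No member with a position had a match within 20 kb of any annotated transcript start (0 of 10), against 2.96% of the 371 other candidates with a position and 2.31% of all 13343 such genes of at least 1 CPM. With 1 mismatch allowed, 2 of 10 (20%) had one, a share near that among the other candidates (19.1%) and all genes (21.1%). They are the neuronal members, Elavl3 with a match 1856 bases from its start and outside the gene (chr9:21858316-21858330, plus strand), and Shisa6 with a match inside the gene (chr11:66307828-66307842, minus strand), 8481 bases from an internal transcript start at 66316316. This match lies 31631 bases from the outermost start of Shisa6, and an exact match lies deeper inside the gene, 243761 bases from the nearest start (chr11:66072548-66072562, minus strand). Measured from outermost starts alone, a choice added after the data were seen, 1 of 10 members (Elavl3) had a match with 1 mismatch allowed, against 17.8% of the other candidates and 16.6% of all genes. Around the members without a position, Ina had an exact match 1988 bases from its start (chr19:47091169-47091183, minus strand), and the 166471 bases between Melk and Pax5 held 1 exact match (chr4:44524753-44524767, plus strand). Of the 40 neighbours, 2 (5.0%) had an exact match within 20 kb, Ina and Melk, the latter 6635 bases from its start. With 1 mismatch allowed, 8 of 40 (20%) had one, near the 21.1% of all genes. Capitals mark the searched letters and lower case the 2 free bases.
Elavl3 site: CAGCACCacAGACAG
Shisa6 site: AAGCACCaaGGACAG
Ina site: CAGCACCtcGGACAG
Melk to Pax5 site: CAGCACCacGGACAG

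The 8293 bases between Ina and Pcgf6 themselves held no match. Apart from the Melk to Pax5 stretch, no stretch around a member without a position held an exact match. The searched chromosomes of mm9 held 620 exact matches in all, and the number to be met in such stretches by their length alone was not worked out. A match is a description of letters, and its absence says only that these letters were not in the window.

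Loci with nearly equal differences lay on either side of the threshold. Just inside it on the higher side were Odaph, with pair differences of 1.38 and 1.05, and Ankrd34a, with 1.25 and 1.05. Just outside were Gm19784 (2.02 and 0.99, from 0 and 0 counts in WT ESCs against 39 and 11 in Rest-/- ESCs) and Gm10036 (0.84 and 1.37, from 674 and 529 against 1003 and 1141 counts). On the lower side, Gm364 (-1.46 and -1.05) and gene ID 545859 (-1.74 and -1.20) were just inside. Gm53 (-0.96 and -1.05, from 140 and 67 against 53 and 21 counts) and gene ID 216394 (-0.94 and -1.18, from 40 and 39 against 11 and 8 counts) were just outside.

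Summed levels of other cells' markers differed between libraries, and fewer cells of a type cannot be told apart from less RNA per cell in these bulk samples. None of the marker genes tested was called by edgeR's quasi-likelihood test. Of 8 feeder fibroblast markers tested, 7 had a positive log2 fold change, with a summed level of 34.7 and 21.0 CPM in WT and of 125 and 22.1 CPM in Rest-/- ESCs; Lum was at 0 in all libraries. All 10 primitive endoderm markers had a positive log2 fold change (576 and 748 CPM against 981 and 1008 CPM in sum), and the 10 pluripotency markers summed to 5173 and 4948 CPM in WT and 4392 and 4499 CPM in Rest-/- ESCs. None of the 8 markers of the 2-cell-like state that were tested had one (22.4 and 3.58 against 13.9 and 1.53 CPM). The part of these cells in the differences of the members was not tested.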

How the data were processed

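RNA was measured in 2 WT (N6) and 2 REST -/- (N8) ESC libraries, made with a TruSeq RNA v2 kit, which does not mark strand. The values the authors deposited are whole-number counts per gene, without normalization. The submitters' processing notes name Subread, featureCounts and mm9, while the annotation and the treatment of reads that match several places are not given in the sources used here. Of the table's rows, 368 without gene ID or values were left out.

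Groups came from the genotype in the labels. CPM was the count divided by the library's total, and a pseudocount of 0.5 CPM was used for pair differences. Fold changes, SEs and adjusted p-values came from edgeR 4.0.16 in R 4.3.3 (TMM, filterByExpr, quasi-likelihood test, Benjamini-Hochberg over 15444 genes, threshold 0.05), with DESeq2 1.42.0 and edgeR's exact tests as alternatives. Counts of 3 per library set the bound where a line had no more. Floors cover counting error only. The spread between 2 replicates may be partly technical.

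Names came from the RefSeq table of GRCm38.p6, and positions and sequences from GENCODE M1 and the NCBIM37 genome. Spliced transcripts were matched with BLAST+ 2.17.0. The edgeR and motif steps were tested on simulated data. All members were named, with the loci next to the threshold. The members and gene lists were chosen with earlier results of these data known. Alternatives covered pseudocount, scaling, minimum CPM, all cross pairs, other tests, the replicate number as a block and each library left out. Ina, Srrm3, Pax5, Calml4, Was, Aldh3a1, Klhdc4 and the source genes and other copies were named after their values were seen.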

Additional observations from a re-analysis of the deposited data

How the results depend on the processing

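The 20 members lay on the side of the rule given here in part because of its settings. The number of lower members was 13 with a pseudocount of 0.1 CPM, 4 with 1 CPM, 4 when all 4 cross pairs had to pass and 11 by the difference of the mean log2 values. With 1 library left out, 16 to 20 loci were higher and 5 to 14 lower; the extremes were 20 higher without WT replicate 2, 14 lower without Rest-/- replicate 1 and 5 lower without Rest-/- replicate 2. A pseudocount of 1 CPM dropped Gm10240, Ankrd34a, gene ID 100503944, Odaph, gene ID 545859 and Gm364. The rule chose the members on these same values, so refits of them are a description and do not test the members. Of 160 refitted log2 fold changes of the members, none changed sign and 158 stayed past 1 in size. The largest shift was 2.13 (Gm6724, 9.16 without WT replicate 1 and 6.28 without WT replicate 2), while Gm5292 went to -6.83 without Rest-/- replicate 1. The 2 that fell short were those of Gm3333 (-0.91) and Gm364 (-0.71), each with a library left out.

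The number of genes called higher was 8 of 15444 with edgeR's quasi-likelihood test, 49 of 20644 without its filter, 179 with the exact test and tag-wise dispersion, 246 with common dispersion, 180 with DESeq2 and 54 to 88 with a library left out. For genes called lower it was 1, 4, 54, 97, 58 and 6 to 25. With a library left out, 1 or 2 neighbours of higher members were called (Srrm3 each time, Calml4 in 3 of 4 fits), and a line left with 1 library is assumed to vary like the other. Adding the replicate number as a block raised the calls to 1308 higher and 1313 lower genes, and 6 neighbours of higher and 2 of lower members were called. Same-numbered libraries deviated together (r = 0.75 across 15444 genes, which are not independent replicates), but the labels do not say that a number marks a shared culture, and there are only 2 pairs. RE1 matches near members went from 0 to 2 with 1 mismatch allowed, and to 1 when distances ran from the outermost start alone, a choice added after the data were seen. The low counts of Gm6724, Odaph and Gm5292 limit how finely their fold differences can be stated, since 3 counts correspond to about 0.1 CPM.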
